A study of Mus musculus with 87 samples.

Results

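Hearts of mouse embryos with and without boundary B2 were compared by RNA-seq. A boundary here is a stretch of DNA between neighbouring topologically associating domains (TADs), which are regions of a chromosome whose sequences contact each other more than they contact the next region. All libraries whose title names line B2 and whose source is embryonic heart were taken, which gave 8 of the 64 RNA-seq libraries and of the 87 samples in the series. They are 4 hearts homozygous for the B2 deletion and 4 wild-type hearts, all of strain FVB at embryonic day 11.5 (E11.5). The deletion was made by CRISPR/Cas9 in fertilised eggs and the line goes back to 1 founder, so it is present in every cell of a homozygous embryo, and a change that came with that founder cannot be told apart from the deletion. The controls were wild-type littermates, but the labels give no litter and no sex for the hearts, and nothing but the sample codes says that each library came from a separate embryo. If some did not, the p-values below measure only the spread between these libraries. The hearts are named here by those codes, A53, A54, A57 and A58 for the homozygous and A55, A56, A59 and A60 for the wild-type ones. The study asked whether expression in the neighbouring domains depends on the boundary.

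CTCF and cohesin, the protein complex that extrudes DNA loops until CTCF halts it, hold most such boundaries in place, and a regulatory element usually acts on genes of its own domain. B2 lies between Tbx5 and Lhx5. Tbx5 encodes a T-box transcription factor that drives the growth and septation of the heart chambers and the building of the conduction system, and loss of 1 copy in humans causes the heart and hand defects of Holt-Oram syndrome. Its neighbour Tbx3, a T-box repressor, keeps the pacemaker and conduction tissue from turning into working muscle. Lhx5 encodes a LIM homeodomain factor of the forebrain and spinal cord. At E11.5 the mouse heart has looped, its chambers beat, and the endocardial cushions that later form valves and septa are filling with mesenchyme.

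The deleted interval is chr5:120087113-120108233 of the mouse genome (mm10, GRCm38), a stretch of 21.12 kb. GENCODE M21 annotates no gene inside it. The nearest annotated gene with counts is Rbm19, whose end next to the interval is 8.23 kb away. The interval was cut out with 4 guides, 2 at each end, which are printed because they fix what the homozygous hearts lack. They are shown 5′ to 3′ with the PAM, the bases that Cas9 needs beside its target, in capitals.
5′ guide 1: agatctaagacagccatgacAGG
5′ guide 2: cactttagtaaagtgttgggTGG
3′ guide 1: ttacacaccaataattggggGGG
3′ guide 2: cataggatacagatatgttgAGG
Each guide matched chromosome 5 of GRCm38 at 1 place. 5′ guide 2 lies at chr5:120087097-120087119 on the + strand, and Cas9 would cut there after base 120087113, which is the first base of the stated interval. 3′ guide 2 lies at chr5:120108226-120108248 on the - strand with a cut after base 120108231, 2 bases before the stated end. 5′ guide 1 (120087138 to 120087160) and 3′ guide 1 (120108089 to 120108111) lie 41 and 128 bases further inside.

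The 12-base core of the CTCF motif, searched on both strands with its variable bases left free, occurs 5 times in the interval. They are printed as the only candidate CTCF sequences that this search found in the deleted DNA, with the core in capitals and 9 bases on each side, on the strand that carries the core.
chr5:120088739-120088750, - strand: gatgttttgCCACAAGGGGGCgcccgcgct
chr5:120091206-120091217, - strand: cttctgaggCCAGAAGAGGGCgtcagatcc
chr5:120094792-120094803, + strand: cctggttctCCAGCAGGTGGCgctgtttga
chr5:120101012-120101023, - strand: ccacagtggCCAGCAGAGGGCatcggatca
chr5:120102932-120102943, - strand: tctctgcggCCACCAGGGGGCgcacagcac
The core is common. Of 6988 windows of the same length along chromosome 5, 63.6% hold at least 1 match and 5.35% hold 5 or more. The interval is also richer in G and C (49.7%) than the chromosome (42.5%). A match describes the letters and does not show that CTCF is bound.

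The 8 libraries held 18.9 to 22.1 M counts each, with 19.7 to 21.5 M in the homozygous and 18.9 to 22.1 M in the wild-type hearts. Levels are given as CPM, the count scaled to a library of fixed size, with TMM factors, in the order of the codes above. Heart muscle genes were high in all 8 libraries, with Tnnt2, cardiac troponin T, at 2389 to 4178 CPM. By Xist, the RNA that coats the inactive X chromosome, and the Y-linked Ddx3y, each genotype held 2 male-type hearts (A53 and A58, A55 and A59) and 2 female-type hearts. A59 read as male by Ddx3y (30.69 CPM) but also had 7.68 CPM of Xist, against at most 0.43 CPM in the other male-type hearts.

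Heart A58 stood apart on measures that do not use genotype. Its score on the first principal component (35.9% of the variance) was 42.8, and the other 7 hearts lay between -11.9 and -0.38. Alb, the serum albumin gene of liver, was at 209 CPM in A58 and at 0.35 to 5.47 CPM in the other homozygous hearts, and at 0.0957 to 25.05 CPM in the wild-type ones. The summed level of the 9 liver transcripts tested was 1106 CPM in A58 and 1.67 to 121 CPM elsewhere, and that of the 8 genes tested from a list of pharyngeal and cranial mesenchyme was 232 CPM in A58 and 104 to 153 CPM elsewhere. Of these, Alx4, a homeobox gene of the face, reached 36.43 CPM in A58 and stayed under 2.4 CPM in the other hearts. A58 was also the heart with the least muscle transcript: the 27 sarcomere genes summed to 34261 CPM in it and to 46436 to 55049 CPM in the others. Heart A60, wild-type, was at 28.8 on the second component (21.1% of the variance), against -15.8 to 6.46. In such samples of whole tissue, fewer cells of a type and less RNA per cell cannot be told apart. Values without A58 are given beside those that moved with it.

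Neither Tbx5 nor any other gene within 1 Mb of the deletion was called different between the genotypes. GENCODE M21 places 39 genes in this window, of which 12 had no count in any of the 8 hearts and 13 passed edgeR's filter on low counts and were tested. The median log2 fold change of the 13, homozygous over wild-type, was -0.06, against 0.01 over all 14346 genes tested. None was called at an adjusted p under 0.05, and edgeR called 0 of the 14346 genes as well (0%). At an unadjusted p under 0.05, 1 of the 13 was lower and 0 were higher, where 2.79% and 2.06% of all genes tested were. Without A58, 0 of the 13 were at that p, where 254 of all 14455 genes were lower and 163 higher. The result was the same in windows of 2 Mb (35 genes tested) and 5 Mb (133 genes tested), with 0 genes called.

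Tbx5 (chr5:119832668-119885219), 202 kb from the deletion, was at 104, 93.4, 99.8 and 127 CPM in the homozygous hearts and 113, 110.5, 130.4 and 88.9 CPM in the wild-type hearts. The groups overlapped, with A59 highest and A60 lowest of all 8 hearts. The means were 106 ± 14.6 against 111 ± 17.02 CPM (SD, n = 4 each). The log2 fold change was -0.06 (95% CI -0.33 to 0.20, edgeR adjusted p = 0.944), where the CI is the confidence interval from the fit, and an exact permutation test of the mean log2 CPM over all 70 arrangements of the 8 hearts gave p = 0.714, two-sided, where 0.0286 is the smallest p the design allows. On the linear scale the interval spans 0.796 to 1.152 times the wild-type level, so a larger change lies outside the interval at this spread. Without A58 the log2 fold change was -0.16 (95% CI -0.40 to 0.08).

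Tbx3 (chr5:119670669-119684724), 402 kb away beyond Tbx5, was at 8.67, 8.97, 11.9 and 41.6 CPM in the homozygous hearts and 12.4, 12.3, 12.8 and 9.998 CPM in the wild-type hearts. The other 7 hearts lay within 8.67 to 12.8 CPM, and A58 alone was at 41.6 CPM. With A58 the log2 fold change was 0.59 (95% CI -0.36 to 1.53, edgeR adjusted p = 0.869), and without it the sign turned, to -0.27 (95% CI -0.60 to 0.06). Tbx3os1, an antisense transcript that starts beside Tbx3, was also highest in A58, at 6.21 TPM (a level that allows for gene length as well as depth) against 0.07 to 1.58 TPM in the other hearts. It had 51 counts in all and was not tested. Mesenchyme and liver genes were also high in A58, and their part in the level of Tbx3 was not tested. Among the other hearts the liver sum was highest in A56 (121 CPM) and the mesenchyme sum in A60 (153 CPM). Tbx3 was at 12.3 CPM in A56 and 9.998 CPM in A60, where both sums were below those of A58 (1106 and 232 CPM).

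On the far side of the boundary Lhx5 (chr5:120431699-120441223), 323 kb away, had 5 counts over the 8 hearts together, at 0 to 0.04 TPM, and was not tested. The highest homozygous heart, A57, and the highest wild-type heart, A55, were both at 0.04 TPM. Rbm19, which encodes an RNA-binding protein of ribosome assembly, is the gene next to the deletion. It was at 19.1, 16.7, 19.04 and 24.96 CPM in the homozygous hearts and 17.5, 14.9, 17.7 and 15.8 CPM in the wild-type hearts. A58 was highest, and the groups overlapped (A54 at 16.72 CPM against A59 at 17.68 CPM). The log2 fold change was 0.28 (95% CI -0.0033 to 0.56, edgeR adjusted p = 0.867), and without A58 it was 0.15 (95% CI -0.09 to 0.40). Gm10390, an antisense transcript within Rbm19, was at 0.637 to 1.61 CPM and cannot be told apart from Rbm19 where they overlap, since no strand setting is given.

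The lowest unadjusted p of the neighbours belonged to Sdsl, a serine dehydratase-like gene 350.0 kb away. It was at 9.85, 9.42, 7.97 and 7.96 CPM in the homozygous hearts and 10.3, 12.2, 8.60 and 14.02 CPM in the wild-type hearts, and the groups overlapped. Its log2 fold change was -0.36 (95% CI -0.71 to -0.0045, edgeR adjusted p = 0.867), or -0.31 (95% CI -0.68 to 0.06) without A58. Plbd2, a lysosomal phospholipase-like gene, was at 55.2 to 75.2 CPM in homozygous and 61.5 to 76.5 CPM in wild-type hearts, with a log2 fold change of -0.06 (95% CI -0.28 to 0.16). Tpcn1, a two-pore channel of endosomes, was at 0.08 (95% CI -0.10 to 0.27) and Slc8b1, the mitochondrial sodium and calcium exchanger, at 0.07 (95% CI -0.25 to 0.39). Rita1, a regulator of Notch signalling, was at -0.07 (95% CI -0.42 to 0.29) and Ddx54, an RNA helicase, at 0.00024 (95% CI -0.18 to 0.18). The remaining tested genes were scarce: Dtx1, Oas1c and Oas1a were at 0.161 to 1.87 CPM, and their log2 fold changes had wide intervals, -0.21 (95% CI -1.18 to 0.75), -0.08 (95% CI -1.03 to 0.88) and -0.55 (95% CI -1.72 to 0.62). Without A58 the log2 fold changes of Plbd2, Tpcn1, Rita1, Dtx1 and Oas1c were 0.0028, 0.16, -0.02, -0.05 and -0.33. Per length, Ddx54 (33.8 to 42.9 TPM) and Tbx5 (21.6 to 39.5 TPM) were the most abundant of the neighbours and Tbx3 reached 1.97 to 10.8 TPM.

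**Figure D1:**
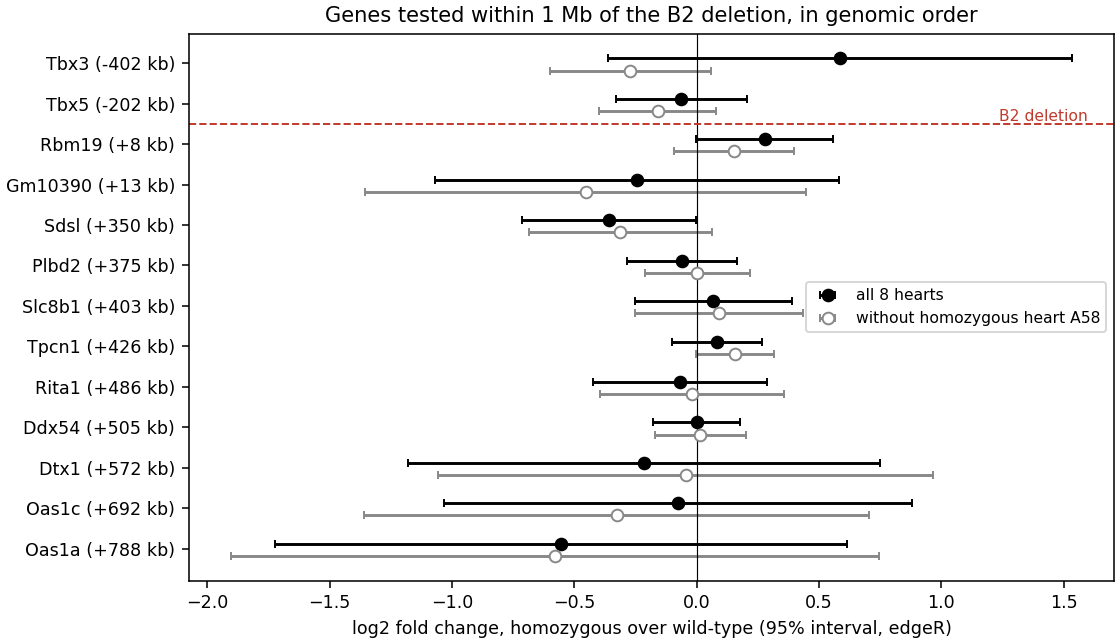
Log2 fold change, homozygous over wild-type, of the 13 genes tested within 1 Mb of the B2 deletion, in genomic order with the distance of each from the interval in kb; black points are all 8 hearts, open grey points leave out homozygous heart A58, and bars are 95% CIs from edgeR. Tbx5 sits at -0.06 and Tbx3 moves from 0.59 to -0.27 when A58 is left out.

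Across the genome edgeR called 0 genes, with 696 of 14346 at an unadjusted p under 0.05, 400 of them lower and 296 higher in the homozygous hearts. The smallest adjusted p was 0.510. Without A58 it also called 0, with 417 at an unadjusted p under 0.05. Without A60 it called 1 entry that has no gene name (ENSMUSG00000090234), which was chosen after its values were seen. DESeq2 called 11 entries of the 11540 it adjusted (0.0953%), 7 lower and 4 higher, with 750 at an unadjusted p under 0.05. The 7 lower entries were mt-Atp6, mt-Nd6, mt-Co1, mt-Cytb, Gm29216, Atpif1 and Hist2h2aa2, of which 4 are encoded in the mitochondrial genome. The 4 higher entries were Has2, Rpl35a-ps2, Rpl35a-ps4 and Gm10243. Several of these are parts of near-identical families whose reads the counting could split, so the sequences were compared and the copies merged, as an alternative chosen after the data had been seen. With the copies of each sequence merged, DESeq2 called 1 gene of 14294, mt-Nd6 (adjusted p = 0.00973), and edgeR called 0 of 14335, with 691 at an unadjusted p under 0.05. That DESeq2 fit also adjusted more genes, 14294 against 11540. Atpif1, Has2 and mt-Cytb are in no merged set, yet they were no longer called. For mt-Cytb the DESeq2 adjusted p went from 0.0463 to 0.113, while its log2 fold change in edgeR stayed at -0.55.

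Mitochondrial transcripts had lower values in the homozygous hearts, and mt-Nd6 was the 1 gene that DESeq2 called with and without merged copies. The mitochondrial genome encodes 13 proteins, all subunits of the respiratory chain or of ATP synthase, together with its own ribosomal and transfer RNAs, and its transcripts are cut from long precursors. The share of counts that fell on mitochondrial genes was 1.90%, 2.54%, 1.86% and 2.32% in the homozygous hearts and 2.46%, 3.14%, 2.92% and 3.12% in the wild-type ones, or 2.16 ± 0.331% against 2.91 ± 0.318% (SD, n = 4 each). The groups overlapped only in A54, which lay above A55. All 13 protein-coding mitochondrial genes had a negative log2 fold change, with a median of -0.45 against 0.01 for all genes tested. These genes are short (median exon length 784 bases), and short genes as a group also had lower values, as given below. At an unadjusted p under 0.05, 9 of the 13 were lower and 0 higher (2.79% and 2.06% of all genes), and none passed the adjusted threshold in edgeR. Without A58 the median was -0.40, again with 9 of the 13 at an unadjusted p under 0.05.

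A stretch of chromosome 1 from 24612407 to 24616197 holds copies of mitochondrial DNA that are annotated as genes. Of the 6 copies tested, Gm28661, Gm28437, Gm10925 and Gm10222 were identical over their whole length (294 to 783 bases) to parts of mt-Co2, mt-Co3, mt-Atp6 with mt-Atp8, and mt-Nd4l. Gm28438 differed from mt-Nd3 DNA in 1 of 345 bases. Gm29216, which DESeq2 called, differed from mt-Co1 DNA in 6 of 492 bases, all within the first 80. These 80 bases are printed because reads from the rest of the copy cannot be told apart from mt-Co1. Differences are in capitals.
Gm29216, chr1:24616118-24616197, - strand: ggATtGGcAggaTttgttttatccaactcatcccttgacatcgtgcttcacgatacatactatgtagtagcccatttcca
Mitochondrial genome, bases 6381 to 6460, + strand: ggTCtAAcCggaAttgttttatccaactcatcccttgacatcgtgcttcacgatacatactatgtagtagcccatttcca
The copies took 7735 to 11498 CPM in the homozygous and 11712 to 13158 CPM in the wild-type hearts, so a large part of the mitochondrial reads was credited to them. Values of single members of these pairs are therefore uncertain, and the sums are given next.

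mt-Co1 with Gm29216, the main catalytic subunit of cytochrome oxidase, summed to 4701, 6612, 5111 and 6050.3 CPM in the homozygous and 6449, 9027, 8699 and 10489 CPM in the wild-type hearts. Only A54 and A55 overlapped, and the log2 fold change was -0.63 (95% CI -0.94 to -0.31). mt-Co2 with Gm28661 had a log2 fold change of -0.55 (95% CI -0.86 to -0.23). mt-Co3 with Gm28437 was at 3683, 4318, 4297 and 4338 CPM against 5298, 4953, 5497 and 4848 CPM, which did not overlap, with a log2 fold change of -0.31 (95% CI -0.47 to -0.14). For mt-Atp6, mt-Atp8 and Gm10925 together the sums were 2483, 4590.4, 3255 and 3353 CPM and 4753, 4502, 4728 and 3974 CPM, which overlapped. Their log2 fold change was -0.39 (95% CI -0.72 to -0.07), smaller than that of the mt-Atp6 entry on its own, which was -0.76 (95% CI -1.07 to -0.45). The entry Gm10925, chosen after its values were seen, was at 1279, 2474, 1497 and 1590.4 CPM in the homozygous hearts and 2061, 1682, 1963 and 761 CPM in the wild-type hearts. The adjusted p of these 4 sums was 0.868 in edgeR, and 0.0567 to 0.802 in DESeq2. The other 2 sums had intervals that include 0, -0.18 (95% CI -0.40 to 0.03) for mt-Nd3 with Gm28438 and -0.18 (95% CI -0.63 to 0.26) for mt-Nd4l with Gm10222.

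Genes without an annotated copy in this stretch showed the same direction. mt-Nd6, a complex I subunit and the only protein encoded on the other strand of the mitochondrial genome, was at 232, 333, 277 and 318 CPM in the homozygous hearts and 374, 435, 458 and 441 CPM in the wild-type hearts. All 4 homozygous hearts lay below all 4 wild-type hearts, with a log2 fold change of -0.56 (95% CI -0.80 to -0.32). It overlaps mt-Nd5 at 1 end, on the opposite strand. mt-Nd4 was at 2218, 3059.7, 1828 and 2278 CPM in the homozygous hearts and 2946, 3651, 3295 and 3742 CPM in the wild-type hearts, and only A54 reached the range of the wild-type hearts. Its log2 fold change was -0.54 (95% CI -0.84 to -0.24). The other genes of this kind had log2 fold changes of -0.57 (95% CI -0.92 to -0.23) for mt-Nd5, -0.55 (95% CI -0.85 to -0.25) for mt-Cytb, the complex III subunit, -0.33 (95% CI -0.59 to -0.07) for mt-Nd2 and -0.31 (95% CI -0.57 to -0.06) for mt-Nd1. The ribosomal RNAs mt-Rnr1 and mt-Rnr2 were at -0.28 each (intervals -0.55 to -0.01 and -0.61 to 0.06). Among the homozygous hearts A54 was the highest for 11 of the 14 entries plotted, and A53 was the lowest for 8 and A57 for 5. The nuclear genes that run mitochondrial transcription and RNA handling, such as the transcription factor Tfam and the polymerase Polrmt, had a median log2 fold change of 0.03, with 0 of 26 at an unadjusted p under 0.05.

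**Figure D2:**
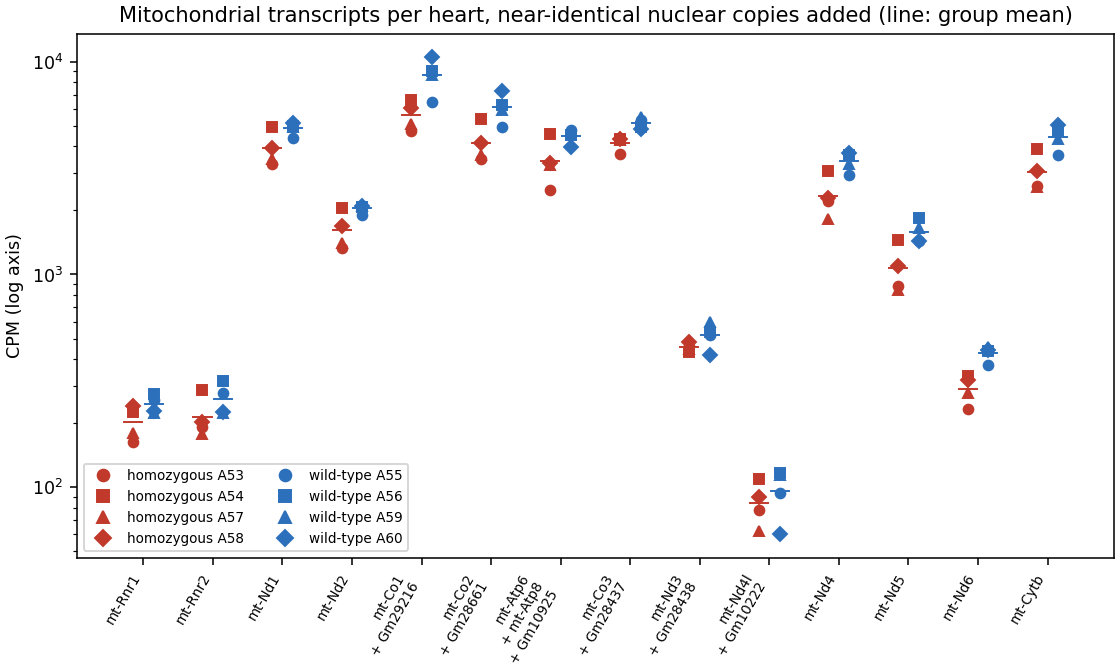
Level in CPM (log axis) of 14 mitochondrial transcripts or merged sets in each of the 4 homozygous (red) and 4 wild-type (blue) B2 hearts, with nuclear copies of the same sequence added and group means as short lines. The homozygous mean is lower in all 14, without overlap for mt-Nd6 and mt-Co3 + Gm28437.

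Nuclear genes of oxidative phosphorylation had lower values as well, by less. Of 82 such genes tested, 81 had a negative log2 fold change and the median was -0.19, against 0.01 over all genes. None was called by edgeR, and DESeq2 called Atpif1 alone. At an unadjusted p under 0.05, 33 of the 82 were lower and 0 higher (2.79% and 2.06% of all genes). In 23 of the 82 all homozygous hearts lay below all wild-type hearts, which held for 1.95% of all genes tested (1.19% in the other direction). By complex, 14 of 37 complex I genes, 12 of 28 genes of complexes II to IV and 7 of 17 ATP synthase genes were at an unadjusted p under 0.05, with medians of -0.19, -0.18 and -0.19. A58 was the lowest heart for the summed level of each of these 3 lists. Without it the median of the 82 was -0.11, and 21 were at an unadjusted p under 0.05.

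Atpif1, the inhibitor that stops ATP synthase from running backwards, was at 302, 316, 330.3 and 303 CPM in the homozygous hearts and 370.4, 371, 363 and 389.6 CPM in the wild-type hearts. The groups did not overlap, and the log2 fold change was -0.26 (95% CI -0.39 to -0.12) with an adjusted p of 0.0374 in DESeq2 and 0.867 in edgeR. DESeq2 no longer called it in the fit with merged copies. Atpif1 is in no merged set, and that fit adjusted more genes (14294 against 11540). Ndufs6, a subunit of the peripheral arm of complex I, was at 138, 150.4, 133 and 122 CPM in the homozygous hearts and 162, 166, 158 and 182 CPM in the wild-type hearts, again apart, with a log2 fold change of -0.30 (95% CI -0.47 to -0.12). Further genes without overlap were Ndufa1 (-0.31), Ndufa12 (-0.28) and Uqcr11 of complex III (-0.27). Cox6a1 and Cox8a of complex IV were at -0.38 and -0.25, and Atp5k and Atp5e of ATP synthase at -0.24 and -0.28.

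The fold changes followed the length of the gene. When the 14285 genes with an annotated exon length were cut by that length into 10 groups of nearly equal size, the median log2 fold change went from -0.13 in the group of the shortest genes (median 1156 bases) to 0.06 in the longest (median 12380 bases), and it increased at every step. Among the shortest genes all homozygous hearts lay below all wild-type hearts for 7.00% of the genes, and among the longest for 0.21%. Without A58 the ends were at -0.11 and 0.04. Of the 82 nuclear oxidative phosphorylation genes, 40 belong to the shortest group. There their median was -0.22, against -0.12 for the other genes of that group. In the next group it was -0.19 for 18 of them against -0.07, and in the fourth group -0.15 for 9 against -0.01. Relative to the mean of the wild-type hearts, the genes of the shortest group with a mean of at least 5 CPM had a median of -0.14, -0.07, -0.11 and -0.20 in A53, A54, A57 and A58 on the log2 scale, and of -0.03, 0.00, -0.07 and 0.10 in A55, A56, A59 and A60. On the same scale the 82 nuclear oxidative phosphorylation genes had medians of -0.13, -0.07, -0.13 and -0.42 in A53, A54, A57 and A58. In A55, A56, A59 and A60 they were at 0.02, -0.05, 0.01 and 0.03. A58 thus lay furthest below its value for the shortest group. Without A58 the median log2 fold change was -0.11 both for the 82 genes and for the shortest group. The part of gene length in the values of single short genes was not tested.

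**Figure D3:**
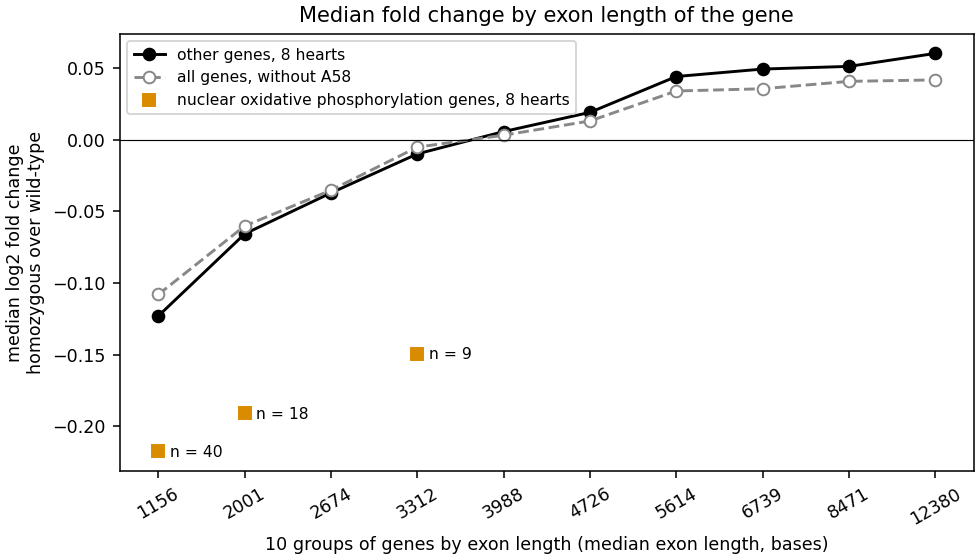
Median log2 fold change, homozygous over wild-type, in 10 groups of genes ordered by exon length (x axis, median length of each group in bases), for genes outside oxidative phosphorylation in all 8 hearts (black), for all genes without heart A58 (open grey) and for nuclear oxidative phosphorylation genes where a group holds at least 9 of them (orange). The black line goes from -0.12 to 0.06, and the orange squares lie below it at -0.22, -0.19 and -0.15. The orange squares include heart A58.

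Genes of the contractile apparatus had lower values in the homozygous hearts, with A58 far below the rest. Of 27 sarcomere genes 26 had a negative log2 fold change (6874 of 14346 over all genes), with a median of -0.21. At an unadjusted p under 0.05, 7 were lower and 0 higher (2.79% and 2.06% of all genes), and none was called by either tool. Without A58 the median was -0.11 and 3 were lower. Myl4, the atrial light chain that all embryonic heart muscle uses, was at 3863, 3802, 3731 and 2315 CPM in the homozygous hearts and 4580.3, 4153, 4543 and 4559 CPM in the wild-type hearts. All homozygous hearts lay below all wild-type hearts, and A58 was far below the other 7. The log2 fold change was -0.38 (95% CI -0.68 to -0.08), and -0.23 (95% CI -0.37 to -0.09) without A58. Tnnt2 had a log2 fold change of -0.30 (95% CI -0.56 to -0.03), Tnni3, cardiac troponin I, of -0.31 (95% CI -0.58 to -0.04) and Tpm1, alpha tropomyosin, of -0.26 (95% CI -0.49 to -0.03). Without A58 they were at -0.18, -0.19 and -0.16. Tnnt1, slow skeletal troponin T, which the early heart also makes, was at 169.9, 173, 152 and 151 CPM in the homozygous hearts and 245, 180.1, 222 and 197 CPM in the wild-type hearts. These did not overlap, and the log2 fold change was -0.39 (95% CI -0.60 to -0.17), with -0.36 (95% CI -0.58 to -0.13) without A58.

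Of the 15 atrial and ventricular genes 4 were lower and 1 was higher at an unadjusted p under 0.05 (2.79% and 2.06% of all genes), with a median of -0.23. Without A58, 2 were lower and 1 was higher, with a median of -0.14. Sln, sarcolipin, an atrial inhibitor of the calcium pump, was at 4.29, 1.67, 2.66 and 1.35 CPM in the homozygous hearts and 5.11, 6.24, 5.54 and 3.21 CPM in the wild-type hearts, with a log2 fold change of -1.01 (95% CI -1.78 to -0.24), or -0.80 without A58. Kcna5, an atrial potassium channel, was at -0.67 (95% CI -1.32 to -0.02), or -0.43 without A58. Nppa, the natriuretic peptide of atria and trabeculae, was at 2885, 3107, 3209 and 2008 CPM in the homozygous hearts and 3462, 2703, 3264 and 3759.9 CPM in the wild-type hearts. Its groups overlapped and its log2 fold change was -0.23 (95% CI -0.55 to 0.08), or -0.10 (95% CI -0.32 to 0.11) without A58.

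Genes known to depend on Tbx5 in mouse hearts did not move together. Of 11 such genes, Nppa and the calcium release channel Ryr2 among them, 7 had a negative and 4 a positive log2 fold change, with a median of -0.07 (0.01 without A58). At an unadjusted p under 0.05 there were 0 lower and 1 higher (2.79% and 2.06% of all genes). That gene was Bmp10, a growth factor of the trabeculated muscle, at 4.67, 3.82, 4.11 and 4.17 CPM in the homozygous hearts and 3.17, 2.65, 3.71 and 1.63 CPM in the wild-type hearts. The groups did not overlap, though A54 lay close above A59, and the log2 fold change was 0.59 (95% CI 0.03 to 1.15). Ryr2 was at -0.26 (95% CI -0.62 to 0.10), or -0.12 (95% CI -0.40 to 0.16) without A58. Its interval includes 0 either way. Gas1, a co-receptor of hedgehog signalling, was at 0.39 (95% CI -0.02 to 0.79), or 0.13 without A58.

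None of the 29 cardiac transcription factors was called, and 0 were at an unadjusted p under 0.05 in either direction (median -0.05), where without A58 1 was lower (median -0.01). Nkx2-5, the homeobox factor of heart muscle, was at 296, 334, 285 and 182 CPM in the homozygous hearts and 346, 303, 305 and 427 CPM in the wild-type hearts, lowest in A58 and highest in A60, with a log2 fold change of -0.33 (95% CI -0.70 to 0.03), or -0.18 (95% CI -0.43 to 0.07) without A58. Tbx1, a T-box gene of the pharynx and outflow tract, had the smallest p of the list. It was at 0.471, 0.736, 1.35 and 1.26 CPM in the homozygous hearts and 0.473, 3.17, 0.591 and 7.61 CPM in the wild-type hearts, with A56 and A60 far above the other 6, and its log2 fold change was -1.63 (95% CI -3.27 to 0.02). Nr2f1, an atrial nuclear receptor, was at -0.52 (95% CI -1.06 to 0.01), and -0.30 (95% CI -0.63 to 0.03) without A58. The 14 pacemaker and conduction genes tested also had 0 at an unadjusted p under 0.05. Shox2, the homeobox gene of the sinus node, differed between hearts rather than groups. It was at 17.3, 0.736, 19.7 and 1.000 CPM in the homozygous hearts and 20.2, 24.99, 33.4 and 0.813 CPM in the wild-type hearts.

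**Figure D4:**
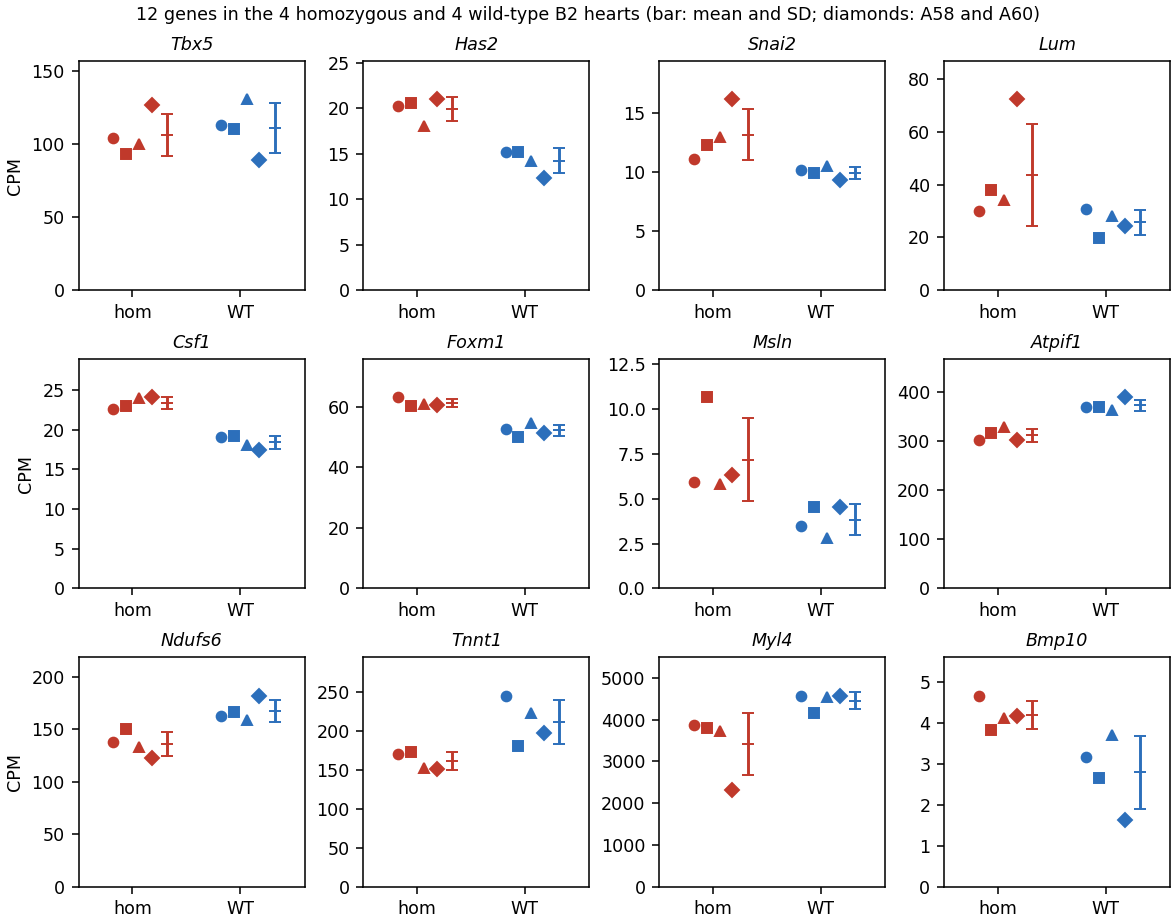
CPM of 12 genes in each homozygous (red) and wild-type (blue) B2 heart on axes that start at 0, with the mean and SD of each group beside the points and diamonds for A58 and A60. Tbx5 overlaps between the groups, whereas Has2 lies at 18.04 to 20.999 against 12.4 to 15.2 CPM and Atpif1 at 302 to 330.3 against 363 to 389.6 CPM.

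Genes of the endocardial cushions tended the other way. Of 25 cushion and valve genes 19 had a positive log2 fold change (7472 of 14346 over all genes) and the median was 0.14 (0.12 without A58). At an unadjusted p under 0.05, 3 were higher and 1 lower, where 2.06% and 2.79% of all genes were. None was called by edgeR, and DESeq2 called Has2. Has2, the hyaluronan synthase whose product swells the cushion matrix, was at 20.3, 20.5, 18.04 and 20.999 CPM in the homozygous hearts and 15.2, 15.2, 14.2 and 12.4 CPM in the wild-type hearts. The 4 homozygous hearts all lay above the wild-type hearts. The means were 19.97 ± 1.32 against 14.3 ± 1.34 CPM (SD, n = 4 each), and the log2 fold change was 0.49 (95% CI 0.26 to 0.71), with an adjusted p of 0.0499 in DESeq2 and 0.867 in edgeR. DESeq2 no longer called it in the fit with merged copies, or without the filter on low counts. Has2 is in no merged set, and both fits adjusted more genes (14294 and 13823 against 11540). Without A58 the log2 fold change was 0.46 (95% CI 0.21 to 0.71). Snai2, which drives the change from endocardium to mesenchyme, was at 11.1, 12.3, 12.98 and 16.1 CPM in the homozygous hearts and 10.1, 9.87, 10.5 and 9.28 CPM in the wild-type hearts, without overlap, with a log2 fold change of 0.40 (95% CI 0.12 to 0.69), or 0.29 without A58. Lum, the matrix proteoglycan lumican, was at 29.9, 37.9, 34.3 and 72.2 CPM in the homozygous hearts and 30.7, 19.7, 28.1 and 24.5 CPM in the wild-type hearts. A58 was far above the other 7, A53 lay below A55, and the log2 fold change was 0.76 (95% CI 0.22 to 1.30), or 0.40 without A58. Cdh11 and Fbln2, a cadherin and a matrix protein of cushion mesenchyme, were at 0.24 (95% CI -0.0029 to 0.49), or 0.13 without A58, and 0.21 (95% CI -0.03 to 0.45). The 1 lower gene was Hyal2, a hyaluronidase, at -0.18 (95% CI -0.34 to -0.02).

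In the epicardium, the outer cell layer of the heart, 2 of 11 markers were higher and 0 lower at an unadjusted p under 0.05 (median 0.15). Over all genes 2.06% were higher and 2.79% lower. Without A58, 3 markers were higher. Msln, mesothelin, was at 5.94, 10.6, 5.81 and 6.30 CPM in the homozygous hearts and 3.50, 4.52, 2.79 and 4.54 CPM in the wild-type hearts, without overlap and with A54 highest, and its log2 fold change was 0.90 (95% CI 0.36 to 1.44). Bnc1, a zinc finger factor of mesothelium, was at 10.5 to 15.96 against 7.85 to 10.03 CPM, with a log2 fold change of 0.47 (95% CI 0.13 to 0.82), or 0.31 without A58. The summed level of the 11 markers was 521 to 650.3 CPM in the homozygous and 462 to 655 CPM in the wild-type hearts. Upk1b was at 0.32 (95% CI -0.0037 to 0.64). Among 14 endothelial genes 0 were at an unadjusted p under 0.05 (median -0.08), and Emcn, endomucin, had the smallest p, at -0.23 (95% CI -0.46 to 0.00016).

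The leading genes outside these lists were picked by the smallest edgeR p among genes of at least 5 CPM whose groups did not overlap. Neither edgeR nor DESeq2 called those named in this paragraph, and each had an adjusted p of 0.867 in edgeR. Among the higher ones Csf1, the growth factor of macrophages, was at 22.6, 22.9, 24.004 and 24.04 CPM in the homozygous hearts and 19.02, 19.2, 18.003 and 17.5 CPM in the wild-type hearts, with a log2 fold change of 0.35 (95% CI 0.16 to 0.53). Foxm1, a transcription factor of dividing cells, was at 63.1, 60.2, 60.8 and 60.6 CPM in the homozygous hearts and 52.8, 50.1, 54.6 and 51.3 CPM in the wild-type hearts, with a log2 fold change of 0.23 (95% CI 0.10 to 0.36). The list of 31 cell cycle genes had 0 at an unadjusted p under 0.05 and a median of 0.06, and the 13 macrophage genes had 0 and a median of 0.07 (-0.16 without A58). Ankrd52, a subunit of a phosphatase complex, was at 0.43. Asb4 was at 0.32, Cyp2s1 at 0.73 (0.51 without A58), Zfp335 at 0.31 and Epb41l4a at 0.61. Among the lower ones Anapc13, a subunit of the anaphase-promoting complex, was at 68.8, 68.996, 67.9 and 56.3 CPM in the homozygous hearts and 75.9, 83.6, 81.95 and 84.1 CPM in the wild-type hearts, with a log2 fold change of -0.31 (95% CI -0.49 to -0.14). Naa38, a subunit of an N-terminal acetyltransferase, was at -0.28, Igfbpl1 at -0.29, Ndufaf8, an assembly factor of complex I, at -0.32 and Yipf2 at -0.34.

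The remaining entries that DESeq2 called are members of families of near-identical genes. Hist2h2aa2, a replication-dependent histone H2A gene, was at 2.64, 3.78, 2.10 and 2.35 CPM in the homozygous hearts and 7.62, 5.14, 3.98 and 7.56 CPM in the wild-type hearts. Its adjusted p was 0.0374 in DESeq2 and 0.867 in edgeR. With its paralogue Hist2h2aa1 added, the sums overlapped (4.05 to 5.31 against 4.78 to 10.7 CPM) and the log2 fold change was -0.74 (95% CI -1.26 to -0.21). Rpl35a-ps2, Rpl35a-ps4 and Gm10243, processed copies of the ribosomal protein gene Rpl35a, had the same values in every heart, 24.4, 22.998, 24.8 and 24.96 CPM in the homozygous hearts and 16.3, 18.4, 16.8 and 18.2 CPM in the wild-type hearts. Their adjusted p was 0.00646 in DESeq2 and 0.510 in edgeR. Together with Rpl35a-ps6 they share 1 sequence of 333 bases without a difference, and Rpl35a-ps6, also chosen after its values were seen, was at 64.3, 18.4, 65.8 and 18.2 CPM in the wild-type hearts. The 4 copies summed to 92.0 to 99.8 CPM in the homozygous and 72.9 to 116 CPM in the wild-type hearts, with a log2 fold change of 0.05 (95% CI -0.27 to 0.37).

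The other lists showed few or no members at an unadjusted p under 0.05, where 2.79% of all genes were lower and 2.06% higher. Glycolysis and hypoxia genes had 3 lower of 28 (median -0.07), which were Gapdh (-0.20), Ldhb (-0.22) and Pgam2 (-0.34), and 1 of the 28 was lower at that p without A58, when these 3 were at -0.13, -0.13 and -0.18. Fatty acid oxidation genes had 1 lower of 14 (median -0.09), and 0 without A58 (median -0.04). Outflow tract and smooth muscle genes had 1 lower of 15, Tagln at -0.33, and 3 lower without A58, when Tagln was at -0.18 (95% CI -0.34 to -0.01). The integrated stress response (16 tested), the blood genes (14), the neuronal genes (8), the Hox genes (13) and the lung and foregut genes (9) had 0 in either direction. The 7 skeletal muscle genes had 1 lower, Tnnt1. Blood transcripts summed to 21522 to 48914 CPM in the homozygous and 30975 to 56057 CPM in the wild-type hearts. The Hox genes summed to 112 CPM in A58 and 70.4 CPM in A60, and to 11.97 to 57.1 CPM in the others, and their median log2 fold change was 0.45 with A58 and -0.17 without it. The liver transcripts had a median of 2.58 with A58 and -0.95 without it. For pharyngeal and cranial mesenchyme it was 0.54 with 2 genes at an unadjusted p under 0.05, and -0.19 without A58. Prrx1 of the same list was at 41.7 CPM in A58 and at 9.73 to 13.25 CPM elsewhere.

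**Figure D5:**
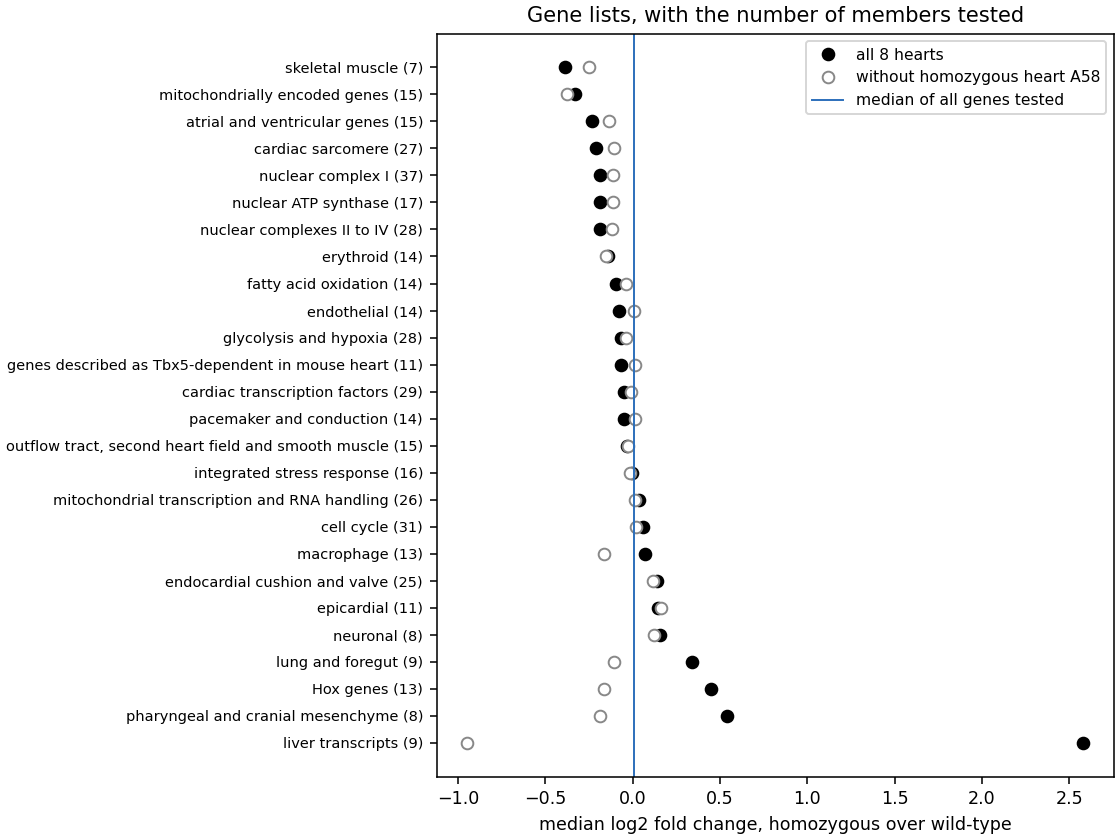
Median log2 fold change, homozygous over wild-type, of 26 gene lists with the number of members tested in brackets, in all 8 hearts (black) and without homozygous heart A58 (open grey), and the median of all genes tested (blue line, 0.01). The mitochondrially encoded genes stay at -0.33 and -0.37, whereas liver transcripts go from 2.58 to -0.95 when A58 is left out.

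To ask whether these differences go with the B2 deletion or the tissue, the genotype effect was compared with that in hearts of lines B3 and B5 (2 homozygous and 2 wild-type each) and in B2 lungs (6 and 6), by interaction terms in edgeR. The genotype comparisons share no library with each other, but each interaction uses the same 8 B2 hearts. No gene was called for B2 against B5 hearts (0% of 15733, 420 at an unadjusted p under 0.05), for B2 against B3 hearts (0% of 15637, 2151 unadjusted) or for lung against heart (0% of 16204, 490 unadjusted). Of the 6 wild-type lungs 2 stood apart. E5420_07S23 had 0.362% of its counts on mitochondrial genes, and E5420_09S24 had 1.54%, with 8.4 M counts in all and 90.1% of them in 10 genes. The other 10 lungs had 18.3 to 31.8 M counts, 11.3 to 14.05% of them on mitochondrial genes and 22.8 to 28.7% in 10 genes. Without those 2 lungs, 0 of 16159 genes were called for lung against heart and 1343 were at an unadjusted p under 0.05. Some of these counts depended on 1 library: without the B5 heart A22, 404 genes were called for B2 against B5, and 2 without A21 and 1 without A24. For B2 against B3, 77 were called without the B3 heart A14, 7 without A54, 4 without A10, 2 each without A12 and without A53, and 1 without A55.

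Over the 13 mitochondrial protein-coding genes the median genotype difference (log2) was -0.45 in B2 hearts, -0.33 in B5 hearts, 0.80 in B3 hearts and -0.54 in B2 lungs. In the lungs it was -0.28 without the 2 that stood apart, in a fit chosen after the data had been seen. For B2 minus B3 the median difference was -1.38, with a smallest adjusted p of 0.105 in edgeR. At an unadjusted p under 0.05, 11 of the 13 were lower and 0 higher, against 1263 and 888 of all 15637 genes. For B2 minus B5 the median was -0.16 with 0 of 13. For lung minus heart it was -0.09 with 0 of 13. Without the 2 lungs it turned to 0.25, with a smallest adjusted p of 0.530 in edgeR. At an unadjusted p under 0.05, 4 of the 13 were then higher and 0 lower, against 707 and 636 of all 16159 genes. Those 4 were mt-Co1 (0.58), mt-Cytb (0.50), mt-Atp6 (0.47) and mt-Nd5 (0.41), of which mt-Co1 and mt-Atp6 have copies on chromosome 1. The nuclear oxidative phosphorylation genes were at -0.19 in B2 (-0.11 without A58), -0.16 in B5 and 0.24 in B3 hearts. In B2 lungs they were at 0.01 with or without the 2. For lung minus heart, with A58 kept, their median was 0.17. At an unadjusted p under 0.05, 5 of 82 were higher (173 of all 16204 genes). Without the 2 lungs the median was 0.22, with 40 of 82 higher at that p (707 of all 16159 genes). Both fits had 0 lower and 0 called among the 82. Sarcomere genes were at -0.21, -0.05 and 0.55 in the hearts of B2, B5 and B3. In B2 lungs they were at -0.39, or -0.23 without the 2 lungs. For Has2 the genotype difference on the log2 scale was 0.49 in B2 hearts, 0.19 in B5 hearts, -0.68 in B3 hearts and 0.79 in B2 lungs, or 0.46 without the 2 lungs. B3 and B5 have 2 hearts per group, so the values of these lines rest on few libraries.

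Tbx5 was at -0.06 in B2 hearts. In B2 lungs it was at -0.80, or -0.59 without the 2 lungs. The sarcomere genes had a negative median in the lungs too, and the part of heart muscle transcripts in the lung value of Tbx5 was not tested. Lung minus heart, Tbx5 came to -0.75 (95% CI -1.30 to -0.19; edgeR adjusted p = 1.000), and without the 2 lungs to -0.51 (95% CI -0.92 to -0.09; edgeR adjusted p = 0.530). Line B5 lacks another interval of chromosome 5, 119710403 to 119744254, on the other side of Tbx5. In its hearts, 2 per genotype, Tbx5 was at -0.77 with a wide interval that includes 0 (95% CI -1.90 to 0.36). B2 minus B5 came to 0.68 (95% CI -0.12 to 1.49; edgeR adjusted p = 1.000). In B3 hearts Tbx5 was at 0.17 (95% CI -0.23 to 0.56).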

How the data were processed

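Total RNA of embryonic tissues was sequenced as read pairs. The authors aligned reads to mm10 with STAR and counted them with RSEM against GENCODE M4, and the deposited tables give expected counts and TPM for 69690 entries each. RSEM shares reads between near-identical genes. The strand setting and the library kit are not given in the sources used here, so overlapping genes on opposite strands cannot be told apart. The submitters' processing notes also name bcl2fastq and Juicer.

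Expected counts were rounded, and the 43346 Ensembl genes were kept. The 8 B2 heart libraries held 18.9 to 22.1 M counts. The edgeR 4.0.16 package in R 4.3.3 filtered genes on low counts (filterByExpr), applied TMM factors and ran its quasi-likelihood test, homozygous against wild-type without covariates, with Benjamini-Hochberg adjustment over all genes tested and calls at an adjusted p under 0.05. Confidence intervals (CI) are 95% intervals from that fit. Deposited TPM served to compare levels between genes, and between hearts for genes that were not tested. Alternatives were DESeq2 1.42.0 (Wald test with and without the filter, and likelihood-ratio test), RLE scaling, no filter, a fit of all 20 hearts, mitochondrial genes left out, each heart left out in turn 2 wild-type lungs left out and, chosen after the data had been seen, near-identical copies merged and the lungs fitted alone without those 2. The fits were tested on simulated data.

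Genes were named if they lay within 1 Mb of the deletion, were called, led by p among genes of at least 5 CPM without overlap between groups (up to 10 in each direction), were encoded by the mitochondrial genome, or led 1 of the 28 gene lists. The text gives a selection of these, and genes outside the rule are marked. Some results are not reported here. The members and lists were chosen with earlier results of these data known. Sequences of the genome and gene positions come from GRCm38 (mm10) with GENCODE M21. The guides and the ends of the deletion come from the study's own list. The methods speak of 2 biological replicates, and 4 hearts per group were used here.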

Additional observations from a re-analysis of the deposited data

Results flagged for a closer look

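Among the 88 genes looked at, which gave 176 groups of 4 hearts, there were 15 groups in which the highest or lowest heart lay far from the other 3. Chance gives about 1 such group in 20 for genes not chosen by their values. The 88 genes are those of the text, named with earlier results known, so the 15 cannot be set against that share. Of the 15, 8 are heart A58. In A58 the high values were Tbx3 (41.6 CPM), Cyp2s1 (15.1 CPM), Bnc1 (15.96 CPM), Alx4 (36.4 CPM), Prrx1 (41.7 CPM) and Alb (209 CPM), and the low values were Anapc13 (56.3 CPM) and Myl4 (2315 CPM). Among the other homozygous hearts, A54 was far above the rest for Msln (10.6 CPM). Among the wild-type hearts, A60 was far above the rest for Yipf2 (41.6 CPM) and below for Tpcn1 (53.7 CPM) and Cdh11 (94.9 CPM). A56 was far below the rest for Myl4 (4153 CPM) and Tnnt2 (3528 CPM), and A55 for mt-Nd2 (1905 CPM).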

How the results depend on the processing

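Against the 0 genes that edgeR called, DESeq2 called 11 by either of its tests, 10 without the filter on low counts and 1 with the copies merged. RLE scaling, no filter, the fit of all 20 hearts, leaving out mitochondrial genes and merging copies in edgeR all gave 0 calls, with 691 to 1020 genes at an unadjusted p under 0.05. Leaving out 1 heart at a time gave 0 to 1 calls, with 417 genes (without A58) to 1172 genes (without A54) at an unadjusted p under 0.05. For B2 minus B5 the calls ranged from 0 to 404 and for B2 minus B3 from 0 to 77 with 1 heart left out, and for lung minus heart they were 0 in each of these fits and without the 2 lungs that stood apart. The cause was not tested. No paired analysis was possible because the homozygous and wild-type hearts share no replicate numbers.

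The sign of some small log2 fold changes turned. The Ddx54 log2 fold change went to -0.0027 in DESeq2 by either test, -0.0036 without its filter, -0.0028 with copies merged, -0.0026 with RLE scaling, -8.17e-05 without a filter and -0.0203 in the fit of all 20 hearts. With 1 heart left out, the log2 fold change of Tbx5 ranged from -0.160 to 0.0245, with 0.0245 without A59. The ranges were -0.27 to 0.81 for Tbx3, -0.0508 to 0.0741 for Ddx54, -0.15 to 0.0175 for Plbd2, -0.21 to 0.0695 for Rita1, -0.44 to 0.16 for Dtx1 and -0.33 to 0.17 for Oas1c. They were -1.13 to 4.73 for Alb, -0.19 to 3.59 for Alx4, -0.15 to 0.22 for Gm10925, -0.79 to 0.67 for Ddx3y and -1.42 to 0.21 for Xist. With 4 hearts per group and a log2 interval of about 0.27 on either side for Tbx5, smaller changes could not be told from 0. A call after adjustment over all genes needed more, as Has2 at 0.49 was not called by edgeR (adjusted p = 0.867).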
